A study of Bos taurus with 6 samples.

Results

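Glycogen, the branched glucose store of muscle, is built and broken down by a small set of enzymes, and 9 of their genes were followed here in longissimus thoracis (LT) muscle: GYG1, GYS1, GBE1, PYGM, PHKA1, PHKB, PHKG1, PPP1R3A and PPP1R3D. They were taken by name, as glycogen enzymes and glycogen-targeting phosphatase subunits, and make up 9 of the 23015 rows of the deposited counts. Low counts removed none of the 9, and 15039 rows in all were tested.

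The libraries came from 6 Hanwoo (Korean native cattle) steers, which are castrated males, raised conventionally on commercial feed, with 1 library per steer. The high-NFMP group, with many fine marbling particles in the LT (NFMP is their number), held steers 3-8, 10-8 and 10-9, aged 32.5, 33.8 and 34.5 months. The low-NFMP group held steers 3-1, 3-3 and 10-16, aged 37.8, 33.7 and 35.4 months. The animals were assigned on NFMP and not on glycogen, which was not among the measurements used here. The libraries were made with a 3′ mRNA kit, in which reads start near the poly(A) tail, so a long transcript does not give more reads than a short one.

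Glycogenin (GYG1) primes a glycogen particle, glycogen synthase (GYS1) lengthens its chains and the branching enzyme (GBE1) adds branches. Glycogen phosphorylase (PYGM) removes glucose units and is switched on by phosphorylase kinase, a complex that holds regulatory alpha (PHKA1) and beta (PHKB) subunits and a catalytic gamma subunit (PHKG1). The targeting subunits PPP1R3A and PPP1R3D bring protein phosphatase 1 to glycogen, where it activates the synthase and switches the breakdown enzymes off. In muscle the glucose released is used within the fibre, mainly for contraction.

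Totals lay between 16283873 and 17192750 counts per library. The values below are normalized counts, which are raw counts brought to a common library size with TMM factors (trimmed mean of M-values). The expected muscle genes were abundant: the 10 fast-fibre markers summed to between 370423 and 542981 normalized counts per steer, and the 9 slow-fibre markers to between 144726 and 226770, with overlapping groups in both lists. Fat cells were also represented, with all 8 adipocyte markers tested.

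The main result was that the core glycogen enzymes of muscle did not differ measurably between high- and low-NFMP steers, whereas the reads assigned to PPP1R3D were 2.46-fold higher in the high-NFMP group. Only PPP1R3D had an unadjusted p below 0.05 in edgeR's quasi-likelihood test, that is 1 of 9 members, against 11.5% of all tested genes. It was also the only member with a fold change above 2 (3.9% of all tested genes met both conditions, 2.53% in this direction). In 2 of 9 members the groups did not overlap (17.1% of all tested genes), with PPP1R3D higher and GBE1 lower in the high-NFMP steers. No member had an adjusted p below 0.05 in that fit (0.685% of all tested genes did). For PPP1R3D it was below 0.05 with DESeq2 or without a filter on low counts. By edgeR it was 0.456 with age as a term and 0.119 with the leading number of a steer's label as a term. With 1 steer left out it lay between 0.0808 and 0.183 by edgeR. The reads of PPP1R3D could not be separated from those of the overlapping gene FAM217B, as given below. The other 8 genes had log2 fold changes (high over low NFMP) between -0.31 and 0.16, and the 95% confidence interval of each lay inside a fold change of 2 in either direction. The median log2 fold change was -0.14 for the 9 genes and 0.02 for all tested genes. A piece of muscle was measured, so fewer cells of a type and less RNA per cell cannot be told apart in any of these values.

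**Figure D1:**
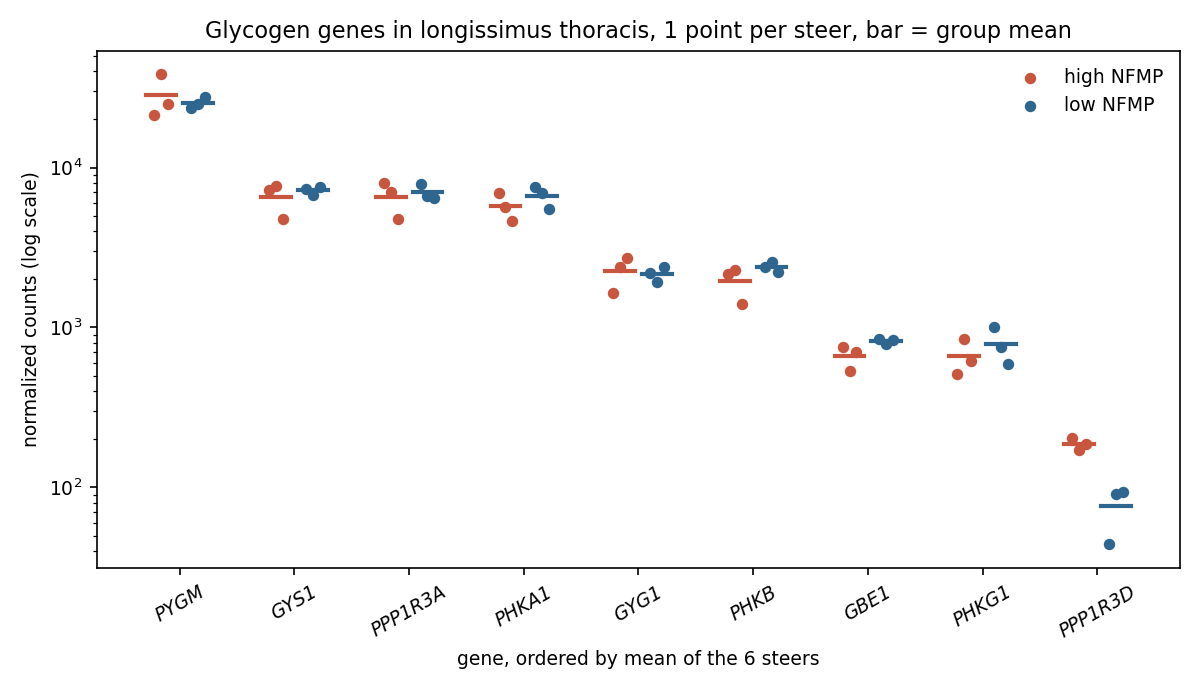
Normalized counts (log axis) of the 9 glycogen genes, ordered by their mean, with 1 point per steer and a bar for each group mean (3 high-NFMP and 3 low-NFMP steers). The groups overlap or nearly touch in 8 genes, and in PPP1R3D the high-NFMP steers, between 171.1 and 204.7, lie above the low-NFMP steers, between 44.0 and 93.9.

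The levels spanned a wide range, given here as normalized counts that are not divided by transcript length because of the 3′ method. PYGM was the most counted member, with a mean of 26770 over the 6 steers, and it alone held between 0.13% and 0.209% of all counts of a library. GYS1, PPP1R3A and PHKA1 followed, with means of 6867, 6797 and 6211, and their ranges overlapped: GYS1 exceeded PPP1R3A in 4 of 6 steers, and PPP1R3A exceeded PHKA1 in 5 of 6. GYG1 (mean 2210.5) and PHKB (2172) could not be ordered, each being the higher one in 3 steers. GBE1 (743.8) and PHKG1 (721.4) overlapped as well, with GBE1 higher in 4 steers. PPP1R3D was the least counted, with a mean of 131.8. In these libraries, PYGM exceeded GYS1, PHKA1 exceeded GYG1, PHKB exceeded GBE1 and PHKG1 exceeded PPP1R3D in all 6 steers. PHKG1 and PPP1R3D may share counts with the overlapping genes SUMF2 and FAM217B, as given below, so their own levels are uncertain. Placement of a transcript's 3′ end in the annotation also sets how many reads a gene receives, and its part in this order was not tested.

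The forms of the enzymes that mark skeletal muscle dominated. PYGM held between 99.5% and 99.8% of the counts of the 3 phosphorylase genes (PYGM, the liver form PYGL and the brain form PYGB). GYS1 held at least 99.9% of the glycogen synthase counts of each library, and the liver form GYS2, counted 1 to 5 times per library, did not pass the filter. The muscle alpha subunit PHKA1 held between 99.4% and 99.8% of PHKA1 and PHKA2 together. Glycogenin was more mixed, with GYG1 at 83.8% to 88.4% and GYG2 making up the rest. PHKG1 held between 87.4% and 94.3% of the PHKG1 and PHKG2 counts in the high-NFMP steers and between 91.8% and 96.5% in the low-NFMP steers. These shares overlapped between the groups for all 5 enzymes. Counts of PHKG1 may be shared with the overlapping gene SUMF2, as given below, so its share of the gamma subunit message is uncertain.

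Among the synthesis genes, GYG1 was at 1637, 2390 and 2732 normalized counts in the high-NFMP steers 3-8, 10-8 and 10-9. It was at 2193, 1932 and 2379 in the low-NFMP steers 3-1, 3-3 and 10-16. The lowest and the highest steer both belonged to the high-NFMP group, and the log2 fold change was 0.06 (95% confidence interval -0.38 to 0.50, adjusted p = 0.939 by edgeR).

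GYS1, the enzyme that lengthens the chains, was at 7194, 7643 and 4776 normalized counts in the high-NFMP steers. The low-NFMP steers had 7314, 6702 and 7575. Steer 10-9 stood below the other 5 steers, which lay close together whatever their group. The log2 fold change was -0.14 (interval -0.58 to 0.30, adjusted p = 0.83 by edgeR), and without steer 10-9 it was 0.059.

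GBE1, the branching enzyme, was at 751.9, 537.9 and 704.0 normalized counts in the high-NFMP steers. It was at 842.1, 792.1 and 834.9 in the low-NFMP steers, so each low-NFMP steer lay above each high-NFMP steer. This separation was the only one towards the low-NFMP group among the 9 genes, and 9.16% of all tested genes showed one in that direction. The difference did not pass the test, with means of 664.6 ± 112 and 823.0 ± 27.0 (SD, n = 3 each), a log2 fold change of -0.31 (interval -0.71 to 0.09) and an adjusted p of 0.563 by edgeR.

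For the breakdown enzyme PYGM, the high-NFMP steers had 21379, 38337 and 25094 normalized counts. The low-NFMP steers had 23424, 24939 and 27445. Steer 10-8 was the highest of the 6 and steer 3-8 the lowest, both of the high-NFMP group, and the low-NFMP values lay between them. The log2 fold change was 0.16 (interval -0.33 to 0.66, adjusted p = 0.823 by edgeR), and without steer 10-8 it was -0.087. PYGM deficiency is the cause of McArdle disease in people, in which muscle cannot use its glycogen.

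The phosphorylase kinase subunits among the 9 members all had negative log2 fold changes, none past the test. The further subunit genes PHKA2 and PHKG2 were at 0.09 and 0.72, also not past the test. PHKA1, the regulatory subunit of muscle, was at 6961, 5690 and 4648 normalized counts in the high-NFMP steers against 7567, 6913 and 5488 in the low-NFMP steers, a log2 fold change of -0.21 (interval -0.65 to 0.23, adjusted p = 0.738 by edgeR). PHKB, the other regulatory subunit, was at 2166, 2286 and 1404 against 2402, 2563 and 2214, a log2 fold change of -0.29 (interval -0.73 to 0.14, adjusted p = 0.624 by edgeR). In PHKA1 and PHKB, steer 10-9 was again the lowest, and the groups overlapped. The number of PHKA1 counts per PHKB count stayed between 2.48 and 3.31 in the 6 libraries.

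PHKG1, the catalytic subunit, was at 509.7, 851.2 and 618.8 normalized counts in the high-NFMP steers. The low-NFMP steers had 1001, 757.9 and 589.6, and both groups held low and high steers. The log2 fold change was -0.25 (interval -0.75 to 0.26, adjusted p = 0.724 by edgeR).

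By RefSeq's gene positions on ARS-UCD2.0, PHKG1 overlaps SUMF2, a gene for a sulfatase-modifying factor, and the raw counts of the 2 genes were close. For the high-NFMP steers, the raw counts were 503, 766 and 617 for PHKG1 and 611, 907 and 821 for SUMF2. For the low-NFMP steers, they were 1046, 819 and 584 for PHKG1 and 1195, 840 and 695 for SUMF2. SUMF2 exceeded PHKG1 in every library, by 21 to 204 counts, and PHKG1 amounted to between 75.2% and 97.5% of it. The PHKG1 values can therefore not be told apart from counts shared with SUMF2, whose own log2 fold change was -0.10 (adjusted p = 0.897 by edgeR).

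PPP1R3A, the targeting subunit of striated muscle, was at 7960, 7054 and 4741 normalized counts in the high-NFMP steers. It was at 7945, 6610 and 6473 in the low-NFMP steers. Steer 10-9 was the lowest and the other 5 steers overlapped. The log2 fold change was -0.09 (interval -0.55 to 0.37, adjusted p = 0.898 by edgeR).

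PPP1R3D, a targeting subunit that is not confined to muscle, behaved differently. The high-NFMP steers 3-8, 10-8 and 10-9 had 204.7, 171.1 and 186.5 normalized counts. The low-NFMP steers 3-1, 3-3 and 10-16 had 44.0, 90.7 and 93.9. The lowest high-NFMP value exceeded the highest low-NFMP value, as in 7.97% of all tested genes in this direction, and steer 3-1, the oldest, was far below the other low-NFMP steers. The means were 187.5 ± 16.8 and 76.2 ± 27.9 (SD, n = 3 each), the log2 fold change was 1.30 (standard error 0.29, interval 0.67 to 1.93), and edgeR gave an unadjusted p of 0.00054 and an adjusted p of 0.0651. Without steer 3-1 the log2 fold change was 1.02, and with age as a term in the fit it was 0.91 (adjusted p = 0.456 by edgeR). Among the steers whose label begins with 3 (1 high-NFMP and 2 low-NFMP) the difference was 1.70 on the log2 scale, and among those whose label begins with 10 (2 high-NFMP and 1 low-NFMP) it was 0.93.

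By the same gene positions PPP1R3D overlaps FAM217B, a protein-coding gene with no known part in glycogen metabolism, and the reads of the 2 genes could not be separated. Steers 3-8, 10-8 and 10-9 had 202, 154 and 186 raw counts for PPP1R3D and 229, 164 and 198 for FAM217B. Steers 3-1, 3-3 and 10-16 had 46, 98 and 93 for PPP1R3D and 47, 103 and 102 for FAM217B. FAM217B was the higher of the pair in each library, by no more than 27 counts, and PPP1R3D came to between 88.2% and 97.9% of it. The fold changes were likewise alike, with a log2 fold change of 1.33 for FAM217B (standard error 0.30, adjusted p = 0.0635 by edgeR), 0.03 from that of PPP1R3D. The difference between the groups therefore belongs to the 2 overlapping genes together, and how much of it is PPP1R3D message cannot be read from these counts.

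**Figure D2:**
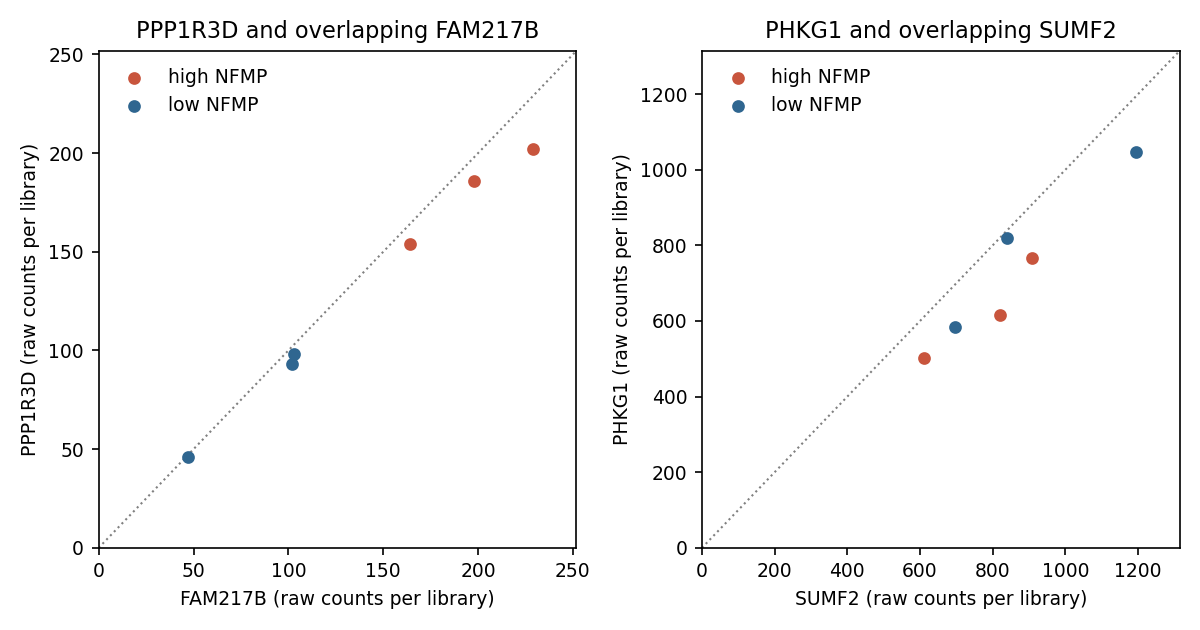
Raw counts per library of PPP1R3D against FAM217B (left) and of PHKG1 against SUMF2 (right), with 1 point per steer and a dotted line where both genes have the same count. All 12 points lie below the line, closer to it in the left panel (PPP1R3D at 88.2% to 97.9% of FAM217B) than for some steers in the right one (PHKG1 at 75.2% to 97.5% of SUMF2), and in the left panel the high-NFMP steers lie at the upper end, with PPP1R3D between 154 and 202 counts.

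Such near-equal counts were not usual for overlapping genes. Of the 1918 pairs of tested genes that overlap by position, 160 (8.34%) had counts within 1.2-fold of each other in all 6 libraries, as PPP1R3D and FAM217B did (at most 1.13-fold apart). Of the 12339 pairs of neighbouring genes that do not overlap, 25 (0.203%) did. PHKG1 and SUMF2, up to 1.33-fold apart, did not meet this limit. No other member overlapped a gene listed in the counts. The limit was set after the counts of PPP1R3D were seen.

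The 3 genes nearest to PPP1R3D over the 6 steers were found among the 8728 other tested genes with a mean of at least 100 normalized counts, by the Euclidean distance between log2 profiles centred on each gene. FAM217B was the nearest, at a distance of 0.12, followed by FAM19A2 at 0.33 and ARMC2 at 0.46. ARMC2 had 915.5 ± 110 normalized counts in the high-NFMP group and 358.5 ± 133 in the low-NFMP group (SD, n = 3 each), and FAM19A2 had 153.2 ± 31.5 and 65.1 ± 20.9. Because the genes were picked for their likeness to PPP1R3D in these same libraries, a similar group difference follows from the choice. The place of FAM217B follows from its nearly equal counts.

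The position of single steers among the 6 is given as a description, since each steer has 1 library and the same tally was not made over all genes. Steer 10-9 (high NFMP) was the lowest of the 6 for GYS1, PHKA1, PHKB and PPP1R3A, between 0.40 and 0.60 below the mean of the gene on the log2 scale, yet it was the highest for GYG1. Steer 10-8 (high NFMP) was 0.54 above the mean for PYGM and 0.45 below it for GBE1. Steer 10-16 (low NFMP) was neither the lowest nor the highest for any member. On the log2 scale the spread within the high-NFMP group was wider than within the low-NFMP group for 7 of the 9 members, and for 60.5% of all tested genes.

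**Figure D3:**
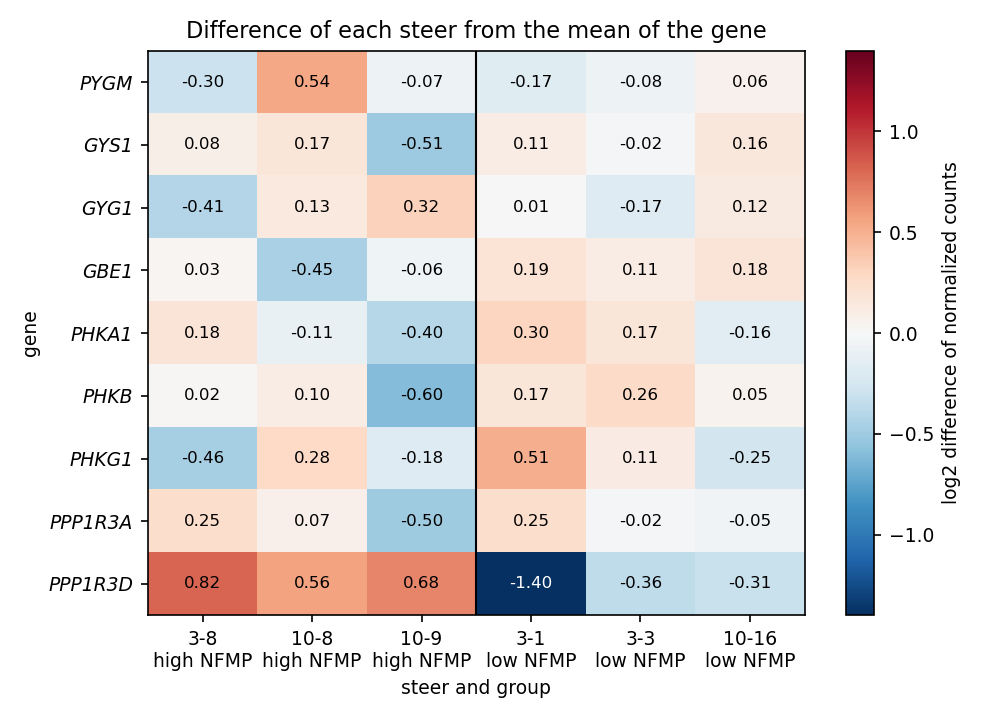
Difference of each steer from the mean of the gene (log2 scale of normalized counts, red above and blue below the mean) for the 9 glycogen genes, with high-NFMP steers left and low-NFMP steers right of the line. Only the PPP1R3D row splits at the line with large values on both sides, from 0.56 to 0.82 against -1.40 to -0.31, and in GBE1 the low-NFMP steers (0.11 to 0.19) lie above the high-NFMP steers (-0.45 to 0.03).

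Ratios between members within a library, which do not depend on the library size, also overlapped between the groups. There were 2.97, 5.02 and 5.25 PYGM counts per GYS1 count in the high-NFMP steers and 3.20, 3.72 and 3.62 in the low-NFMP steers. The high-NFMP group thus held both the lowest ratio (steer 3-8) and the highest ones, and the difference of 0.29 on the log2 scale had p = 0.4 (adjusted over 3 ratios 0.6) in a two-sided exact permutation test. For PPP1R3A per PYGM and PHKA1 per PHKB the differences were -0.24 and 0.11, with p = 0.6 and 0.5 in exact permutation tests (both adjusted to 0.6). With 3 steers against 3 this test cannot give a p below 0.1.

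The rest of the glycogen pathway held few differences past the test. Of 27 further genes of synthesis, breakdown and phosphatase control, 25 were tested, and 1 of them (PPP1R3C) had an unadjusted p below 0.05 by edgeR, against 11.5% of all tested genes. For genes with few counts the intervals reach past a fold change of 2, as for PYGB (-0.81 to 1.44 on the log2 scale), so a difference of that size would not have been detectable there. Their median log2 fold change was 0.08, with 16 positive and 9 negative values. PPP1R3G was not analysed here.

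PGM1, phosphoglucomutase, which links glucose 1-phosphate to glucose 6-phosphate, was the most counted of the 4 tested further synthesis genes. Its normalized counts were 10051, 16396 and 15138 in the high-NFMP steers and 9648, 10970 and 13458 in the low-NFMP steers, a log2 fold change of 0.29 (interval -0.19 to 0.76). UGP2, which makes the UDP-glucose that the synthase uses, had a log2 fold change of 0.05 (interval -0.37 to 0.47). The groups overlapped in both genes.

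Among the 9 further breakdown genes, none had an unadjusted p below 0.05 by edgeR. PHKG2, the gamma subunit known from liver, was at 67.9, 51.1 and 89.3 normalized counts in the high-NFMP group against 36.4, 37.9 and 52.5 in the other. The groups overlapped, and PHKG2 did not pass the test (log2 fold change 0.72, unadjusted p = 0.0565, adjusted p = 0.454 by edgeR). UGP2 and PHKG2 were named after their values were seen. Counts may also be shared elsewhere in these lists: PYGL amounted to between 123% and 140% of the counts of ABHD12B, which it overlaps, and the phosphatase catalytic subunit PPP1CA to between 99.6% and 118% of those of RAD9A.

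**Figure D4:**
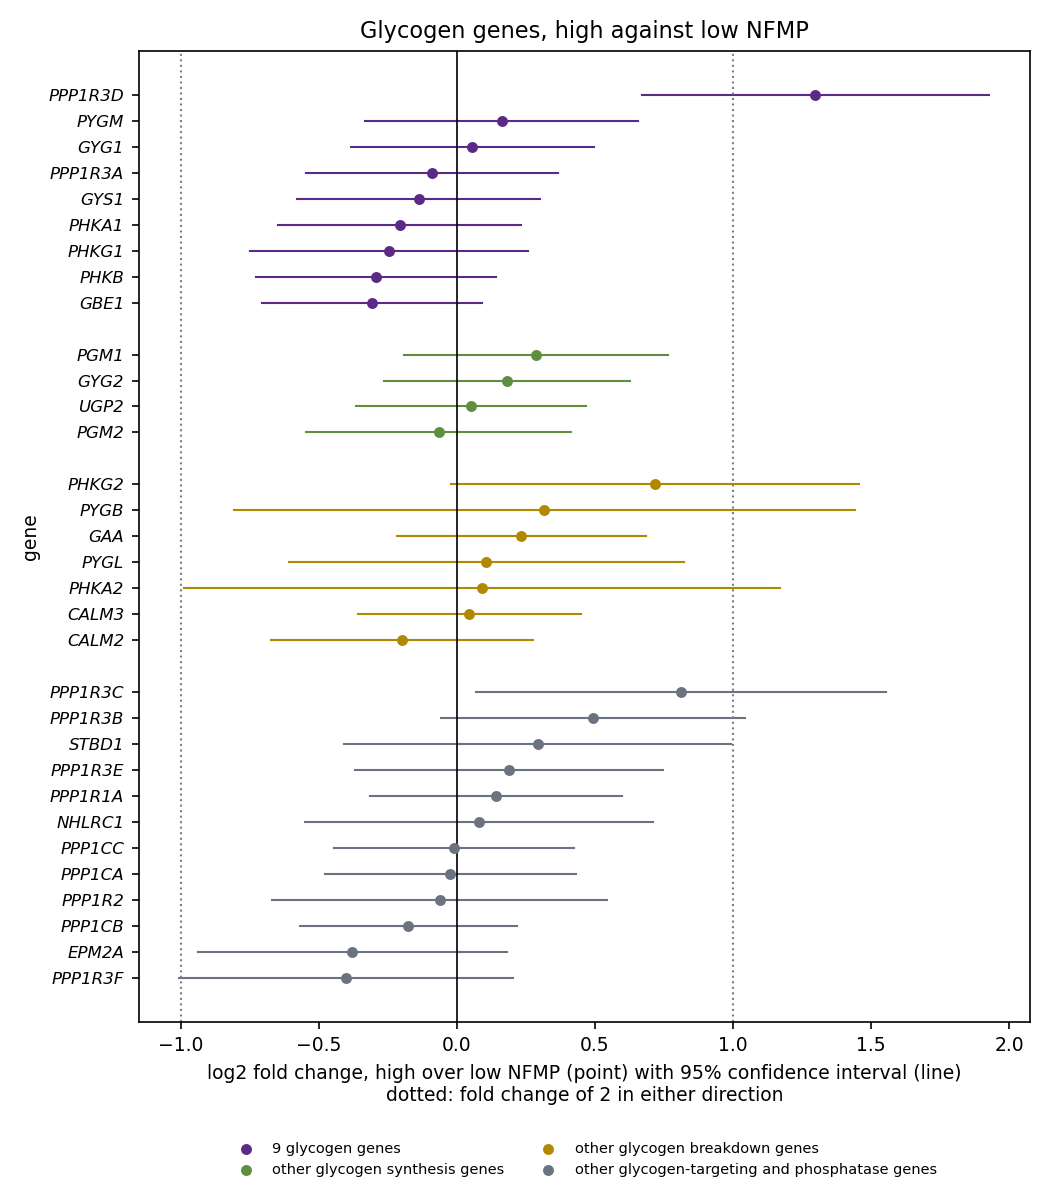
Log2 fold change of high over low NFMP (points) with its 95% confidence interval (lines) for the 9 glycogen genes and 23 of the 25 further genes tested in the pathway, in 4 groups marked by colour, with dotted lines at a fold change of 2. PPP1R3D, at 1.30, is the only point beyond a dotted line, and PPP1R3C, at 0.81, is the only other gene whose interval leaves out 0.

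The other targeting subunits were measured alongside. PPP1R3C, also called protein targeting to glycogen, was higher in the high-NFMP group at an unadjusted p of 0.0349 (adjusted p = 0.399 by edgeR). Its normalized counts were 1012, 2320 and 1298 in the high-NFMP steers and 1046, 546.0 and 1045 in the low-NFMP steers. The groups overlapped through steer 3-8, and the log2 fold change of 0.81 (interval 0.07 to 1.55) rested in large part on steer 10-8, without which it was 0.43 and the unadjusted p was 0.143 by edgeR. It also missed that threshold without steer 10-9 (log2 fold change 0.95, unadjusted p = 0.0505) and without steer 3-3 (0.56, unadjusted p = 0.0960), both by edgeR. The same held with every row kept (0.80, unadjusted p = 0.0700) and with the leading number of a steer's label as a term (0.57, unadjusted p = 0.0981), both by edgeR. With age as a term the log2 fold change was 1.30 (unadjusted p = 0.00525 by edgeR). PPP1R1A, inhibitor 1 of the phosphatase, was the most counted gene of its list and had a log2 fold change of 0.14 (interval -0.31 to 0.60).

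Of the 17 tested kinase genes that act on glycogen synthase or on phosphorylase kinase, 1 was higher and 1 was lower at an unadjusted p below 0.05 (5.73% and 5.74% of all tested genes were). The higher one was PRKAG2, a regulatory subunit of AMP-activated protein kinase, in which inherited mutations lead to glycogen storage in heart muscle. It was at 840.1, 1029 and 1501 normalized counts in the high-NFMP steers and 537.8, 449.7 and 560.3 in the low-NFMP steers, with all high-NFMP steers above all others. PRKAG2 thus differed by 1.12 on the log2 scale (standard error 0.22, edgeR adjusted p = 0.034), and by between 0.87 and 1.29 with 1 steer left out, where the adjusted p ranged up to 0.200 (without steer 3-3). The adjusted p by edgeR was also above 0.05 with the leading number of a steer's label as a term (0.0846), with age as a term (0.0704) and with library totals alone (0.0507). The log2 fold change of PRKAG2 in these fits was 0.97, 1.36 and 1.06, in the same order. The lower one was PRKACB, a catalytic subunit of the cyclic AMP-dependent kinase that activates phosphorylase kinase. PRKACB was at 471.2, 305.6 and 381.1 in the high-NFMP steers and 998.0, 716.2 and 474.5 in the low-NFMP steers, so that steers 3-8 and 10-16 were nearly equal at the border of the groups. Its log2 fold change was -0.92 (standard error 0.26, unadjusted p = 0.00344, adjusted p = 0.166 by edgeR), and it was -0.63 without steer 3-1. PRKAR2A, the most counted kinase subunit of the list, had a log2 fold change of -0.23 (interval -0.62 to 0.16).

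Of 6 genes of glucose entry and phosphorylation, 4 passed the filter and 1 of these was higher at an unadjusted p below 0.05 (5.73% of all tested genes were). This was SLC2A1, a glucose transporter, with few reads: 39, 23 and 26 raw counts in the high-NFMP group and 5, 11 and 16 in the low-NFMP group. SLC2A1 had a log2 fold change of 1.55 (adjusted p = 0.258 by edgeR), and the call was lost with age as a term (1.01, unadjusted p = 0.153) and without steer 3-8 (1.31, unadjusted p = 0.0525). HK2, the hexokinase of muscle, was the most counted and had a log2 fold change of 0.32 (interval -0.10 to 0.73). SLC2A4, the insulin-responsive transporter, was at 893.8, 847.9 and 955.8 normalized counts against 376.1, 954.1 and 666.3, with a log2 fold change of 0.43 (interval -0.15 to 1.02). Steer 3-3 of the low-NFMP group lay among the high-NFMP steers for this gene, which was named after its values were seen.

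Fibre type and fat content bear on glycogen genes, and their markers are given for that reason. Of the 10 fast-fibre markers, 1 (PVALB) was higher at an unadjusted p below 0.05 (5.73% of all tested genes were), and the median log2 fold change of the list was 0.10 (between 0.029 and 0.28 with 1 steer left out). PVALB (log2 fold change 1.27) nearly shares its counts with an overlapping gene, LOC101906435. Its call was lost without steer 3-8 (log2 fold change 1.07, unadjusted p = 0.0781) and without steer 10-8 (1.04, unadjusted p = 0.0757), both by edgeR. The call was also lost without steer 3-3 (1.17, unadjusted p = 0.0572) and with age as a term (1.28, unadjusted p = 0.0859), both by edgeR. Of the 9 slow-fibre markers, 1 (MYL3, log2 fold change -0.78) was lower (5.74% of all tested genes were), and the median was -0.08, which was above 0 without steer 3-8 (0.054), without steer 10-9 (0.061), without steer 10-16 (0.021) and with age as a term (0.029). The summed levels of both fibre lists overlapped between the groups, as PYGM and GYS1 did.

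Adipocyte markers were higher in part. All 8 had a positive log2 fold change, with a median of 0.62, and 4 (ADIPOQ, CIDEC, CIDEA and PLIN4) had an unadjusted p below 0.05, against 11.5% of all tested genes, with adjusted p between 0.214 and 0.405 by edgeR. With age as a term none of the 4 passed (unadjusted p between 0.0675 and 0.269 by edgeR) and the median was 0.18. The log2 fold changes of CIDEA and CIDEC were then 0.82 and 0.73, against 0.69 and 0.89 in the main fit. Those of ADIPOQ and PLIN4 were 0.32 and 0.33, against 0.63 and 0.47. Without steer 3-8 CIDEC alone of the 4 passed, with ADIPOQ at 0.36 against 0.63 with all steers. The calls of CIDEA and PLIN4 were also lost without some of the other steers. In those fits the log2 fold change of CIDEA lay between 0.59 and 0.72 and that of PLIN4 between 0.38 and 0.50. The summed normalized counts of the 8 markers were 11989, 6912 and 5155 in the high-NFMP steers and 5432, 6187 and 4877 in the low-NFMP steers. Steer 3-8 held the most adipocyte message and also the highest PPP1R3D level. Steer 10-9, whose adipocyte sum lay within the low-NFMP range, had 186.5 normalized counts of PPP1R3D. Without steer 3-8 the median of the adipocyte list was 0.15, and the log2 fold change of PPP1R3D was 1.23. The part of fat cells in the PPP1R3D and PPP1R3C results was not tested. The fibroblast, endothelial and macrophage lists overlapped between the groups in their sums, with PDGFRA as the only member with an unadjusted p below 0.05 (log2 fold change -0.51). That call was lost without steer 10-9 (-0.32, unadjusted p = 0.160 by edgeR) and without steer 10-16 (-0.31, unadjusted p = 0.226 by edgeR).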

How the data were processed

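RNA sequencing counts of LT muscle from 6 steers were analysed, with groups taken from the sample labels. The authors made 3′ mRNA libraries and deposited 1 table of raw counts for each steer, with gene symbols as rows. Their methods give mapping to UMD3.1 with Tophat2 and counting with HTSeq, and elsewhere alignment with Bowtie2 and counts from unique and multiple alignments. The submitters' processing notes name Bowtie2 and bedtools. These sources do not settle which route made the counts or whether strand was used, so overlapping genes may share reads.

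Tests used edgeR 4.0.16 under R 4.3.3 (default filter, minimum count 10 and minimum total 15, TMM factors between 0.915 and 1.083, robust quasi-likelihood test). The rows kept held 99.8% to 99.9% of each library. Rows of repeated symbols (176) stayed separate. Benjamini-Hochberg adjustment covered all 15039 tested rows. The 95% intervals use the standard error derived from the F statistic and the residual degrees of freedom. The biological coefficient of variation was 25.1%. Counts of 46 to 202, as for PPP1R3D, carry a visible counting error, and because no molecular identifiers were used, reads need not be separate molecules. Overlaps were read from RefSeq gene positions on ARS-UCD2.0, where all 9 members were found. That assembly is not the authors' build, so no coordinates are given, and strand was not used.

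The members and lists were chosen with earlier results of these data known. The genes named were all members and their overlapping genes, list genes with an unadjusted p below 0.05, the most counted gene of each pathway list, and the 3 nearest profiles to the member with the smallest p. Some of these genes are not reported here. The alternatives were DESeq2 1.42.0, RLE size factors, library totals alone, quantile normalization with limma 3.58.1 (1 added to each count), every row kept, a minimum of 10 counts per library, age or the leading number of a steer's label as a term, repeated symbols summed, and each steer left out. The procedures were tested on simulated counts.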

Additional observations from a re-analysis of the deposited data

How the results depend on the processing

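Over the 15 other settings, PPP1R3D was higher in the high-NFMP group at an unadjusted p below 0.05 each time, with a log2 fold change between 0.91 (age as a term) and 1.50 (without steer 10-16). Its adjusted p ranged from 0.00487 with DESeq2 to 0.456 with age as a term, and was 0.00965 without a filter on low counts. No setting brought another member past an unadjusted p below 0.05, and GBE1, PHKA1 and PHKB stayed negative in all of them. Their size moved with single steers: GBE1 was -0.15 without steer 10-8, PHKA1 -0.061 and PHKB -0.090 without steer 10-9, and PHKG1 -0.033 without steer 3-1. The sign of other small log2 fold changes also changed. With 1 steer left out, PYGM ranged from -0.087 to 0.33, GYS1 from -0.24 to 0.059, GYG1 from -0.088 to 0.24 and PPP1R3A from -0.25 to 0.11. GYG1 was also negative with library totals alone (-0.012) and with the leading number of a steer's label as a term (-0.11), and PHKG1 was positive with age as a term (0.014). SUMF2 was at 0.24 with age as a term and between -0.24 and 0.14 with 1 steer left out. The cause of these sign changes was not tested.

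The number of members whose groups do not overlap was between 2 and 4 with 1 steer left out, the 4 being without steer 10-16, where 27.1% of all tested genes were not overlapping (24.9% to 34.3% over the 6 fits, against 17.1% with all steers). Without PPP1R3D and PHKG1, whose counts may be shared with an overlapping gene (a setting chosen after seeing the data), 0 of the 7 other members had an unadjusted p below 0.05 by edgeR (11.5% of all tested genes) and 1 (GBE1) had groups that do not overlap (17.1% of all tested genes). With DESeq2 they also numbered 0. The number of all genes called at p and fold change was 586 of 15039 tested rows. It was 969 of 23015 without a filter and 364 of 13248 with at least 10 counts in every library. The cause of these changes was not tested. The median of the glucose entry list was 0.10 without a filter, against 0.375 in the main fit. That of the macrophage list was 0.57 with at least 10 counts in every library, against 0.23 in the main fit. With 1 steer left out, the adipocyte median lay between 0.15 and 0.80, the fibroblast median between -0.22 and 0.31 and the macrophage median between -0.057 and 0.449. Library totals alone moved the median of all tested genes from 0.02 to -0.05. The 3 ratios within a library kept their direction with 1 added to each count and with each steer left out.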
